A study of Mus musculus with 6 samples.

Results

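Tight junction genes of Tri-PyMT cells were followed as a set of 10, taken from the table by symbol, and all 10 symbols were found among its 30743 features. They are the claudins Cldn1, Cldn3, Cldn4 and Cldn7, the MARVEL-domain proteins Ocln (occludin) and Marveld2 (tricellulin), the immunoglobulin-like receptors Lsr (angulin-1) and F11r (JAM-A), and the cytoplasmic plaque proteins Tjp3 (ZO-3) and Cgn (cingulin). Tri-PyMT is a mouse mammary tumour line driven by the polyoma middle T oncogene, in which Cre under the Fsp1 (S100a4) promoter switches cells permanently from red to green fluorescence, so that cells that have once used that promoter stay green. All groups came from this 1 line, grown in 10% serum and sorted by colour. They were GFP+ cells (labelled EMT, for epithelial-mesenchymal transition) from cultures given 4 µM 4-hydroperoxy-cyclophosphamide (CTX) over 7 days, untreated GFP+ cells (labelled EMT), and untreated RFP+ cells (labelled non-EMT), with 2 libraries each. CTX is a DNA-alkylating agent, a form of cyclophosphamide that needs no activation by the liver. Whether libraries of the same group stem from different cultures is not given in the labels, and p-values therefore cover only their spread, which may be technical.

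Tight junctions seal the space between neighbouring epithelial cells. Claudins form the strands, and their mixture sets which ions pass. Occludin lies along the strands, while LSR recruits tricellulin to the points where the corners of cells meet. JAM-A takes part in junction assembly, and ZO-3 and cingulin tie the strands to the actin cytoskeleton on the cytoplasmic side. Dissolving these junctions is a classic step of EMT, and breast tumours with little Cldn3, Cldn4 and Cldn7 are known as claudin-low. SNAI and ZEB repressors bind E-boxes in promoters of epithelial genes, and the AP-1 factors bind a different short motif.

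Values are FPKM, fragments scaled by the authors to transcript length and to mapped fragments, which allows levels of different genes to be set side by side. Depth was estimated from the size of the smallest steps in low values, at about 25600000 fragments for RFP+ replicate 1 (quartiles over 223 genes 19600000 and 28000000). Relative to that library, untreated GFP+ replicate 1 was the shallowest, at about 20400000, and CTX replicate 1 the deepest, at about 28200000. The CTX libraries differed by less than the sampling noise estimated from depth (robust SD 0.921 of counting noise, against 3.42 for untreated GFP+ and 3.23 for RFP+ cells) and were counted as 1 sample. CTX levels are therefore given as the values of both libraries, without an error, and the other groups as values of both libraries or mean ± SD (n = 2). Changes are log2 changes of FPKM + 1, which understates those of low genes, from limma with Benjamini-Hochberg adjustment over 13080 genes, fitted to 5 samples with the CTX libraries averaged. In that fit the spread behind every SE and p-value, also in the comparisons with CTX, comes from the untreated GFP+ and RFP+ pairs. The median over all genes was -0.24 for untreated GFP+ minus RFP+ cells, 0.25 for CTX-treated minus untreated GFP+ cells and 0.01 for CTX-treated GFP+ minus RFP+ cells, and each change below includes that shift.

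The labels were checked against marker lists. The summed FPKM of 6 epithelial markers was 463 and 441 in CTX-treated GFP+ cells and 209.9 and 389 in untreated GFP+ cells, against 805 and 1056 in RFP+ cells. Krt5, a basal keratin of that list, ran the other way, at 22.8 and 21.8 FPKM in CTX-treated GFP+ cells and 10.3 and 16.4 FPKM in untreated GFP+ cells, against 4.61 and 6.17 FPKM in RFP+ cells. It was higher in CTX-treated GFP+ than in RFP+ cells (log2 change 1.88, SE 0.39, limma adjusted p = 0.0274), and between the untreated colours its change did not pass (limma adjusted p = 0.196). The call of Krt5 was lost after median-ratio scaling (log2 change 1.90). Of the leukocyte list, Adgre1 and Cd3e were listed at 0 in every library and Ptprc reached at most 0.013 FPKM. Cd68 and Lyz2 were called higher with CTX than in untreated GFP+ cells (log2 change 2.54 and 1.16), as were 3.24% of all genes. Both calls were lost after median-ratio scaling (log2 change 2.33 and 1.08). Lyz2, at 2.17 and 2.10 FPKM with CTX and at most 0.637 FPKM elsewhere, was tested only because of the CTX libraries. The summed level of the leukocyte list, mostly Cd14, was 169 and 163 in CTX-treated GFP+ cells, 117 and 128 in untreated GFP+ cells and 210.0 and 209 in RFP+ cells. The endothelial list summed to 1.32 and 1.24 FPKM with CTX, 0.103 and 0.343 in untreated GFP+ cells and 0.198 and 0.258 FPKM in RFP+ cells. The fibroblast list summed to 107 and 109.8 FPKM with CTX, 61.0 and 90.8 FPKM in untreated GFP+ cells and 24.9 and 27.2 FPKM in RFP+ cells, with Lum at no more than 0.05 FPKM in any library. Most of its level with CTX was Dcn, at 84.0 and 87.2 FPKM with CTX, 30.4 and 53.5 FPKM in untreated GFP+ cells and 7.31 and 12.3 FPKM in RFP+ cells. Pdgfrb was at 8.07 and 8.22 FPKM with CTX, against 17.8 and 19.3 FPKM in untreated GFP+ cells, and Col1a1 at 1.05 and 0.873 FPKM against 2.10 and 2.31 FPKM. For Dcn, Pdgfrb, Col1a1 and Pdgfra the change between CTX-treated and untreated GFP+ cells did not pass (limma adjusted p = 0.273, 0.139, 0.251 and 0.980). With the 6 libraries as separate samples Pdgfrb and Col1a1 passed as lower (limma adjusted p = 0.0114 and 0.0325), where 0.474% of all genes did. Against RFP+ cells Dcn was higher in untreated and in CTX-treated GFP+ cells (log2 change 1.97 and 3.04, limma adjusted p = 0.0410 and 0.00555). Both calls of Dcn were lost after median-ratio scaling (limma adjusted p = 0.149 and 0.0501). The part of these markers in the results below was not tested. In bulk samples fewer cells of a type and less RNA per cell cannot be told apart.

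The promoters of 4 members are printed because Lsr and Cldn7 fell in untreated GFP+ cells and hold several E-boxes, while Cldn4 and F11r were higher in both CTX libraries than in untreated GFP+ cells and hold AP-1 letters. These 4 were picked for having both, so the pairing of change and motif in them is no result. Each is the 250 bases before the start of the gene in RefSeq on GRCm38.p6, which differs from the mm9 build named for the deposited values. Capitals mark the E-box CAGGTG or CACCTG and the AP-1 letters TGACTCA or TGAGTCA, each pair being the same motif read on both strands. The windows are Lsr at chr7:30973470-30973719 on the minus strand, Cldn7 at the second of its listed starts at chr11:69965171-69965420 on the plus strand, Cldn4 at chr5:134946935-134947184 on the minus strand, and F11r at chr1:171437311-171437560 on the plus strand.
Lsr: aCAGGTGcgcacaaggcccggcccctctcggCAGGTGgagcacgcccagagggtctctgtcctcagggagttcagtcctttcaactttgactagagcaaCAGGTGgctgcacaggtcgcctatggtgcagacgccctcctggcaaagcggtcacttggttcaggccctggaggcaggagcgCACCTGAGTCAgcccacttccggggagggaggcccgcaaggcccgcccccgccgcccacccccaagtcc
Cldn7: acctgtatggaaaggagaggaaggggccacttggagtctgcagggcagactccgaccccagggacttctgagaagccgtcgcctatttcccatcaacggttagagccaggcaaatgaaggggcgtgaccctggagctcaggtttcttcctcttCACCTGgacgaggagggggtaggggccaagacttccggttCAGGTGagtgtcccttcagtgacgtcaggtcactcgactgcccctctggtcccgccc
Cldn4: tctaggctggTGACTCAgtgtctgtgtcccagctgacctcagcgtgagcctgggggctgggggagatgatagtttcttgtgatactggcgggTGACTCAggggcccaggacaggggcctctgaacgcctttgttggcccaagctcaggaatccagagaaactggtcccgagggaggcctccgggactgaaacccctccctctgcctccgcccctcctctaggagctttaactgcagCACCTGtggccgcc
F11r: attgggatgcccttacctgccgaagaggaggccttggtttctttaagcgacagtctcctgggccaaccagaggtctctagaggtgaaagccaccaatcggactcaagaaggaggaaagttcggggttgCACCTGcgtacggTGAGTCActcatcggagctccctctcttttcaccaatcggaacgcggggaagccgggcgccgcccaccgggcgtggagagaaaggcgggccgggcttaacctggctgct

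All 10 genes had a promoter in that table, 14 windows in all because 4 genes have a second start. An E-box stood in 7 of the 14 windows, belonging to 6 genes (Lsr, Cldn7, Cldn4, F11r, Tjp3 and Ocln), against 17.2% of all 32851 windows. Lsr had 4, at 249, 219, 151 and 69 bases before the start, and 0.0426% of all windows had 4 or more. The printed window of Cldn7 had 2, where 2.06% of all windows had 2 or more, and the window of its first listed start had 0. AP-1 letters stood in 3 windows, against 4.46% of all windows. Cldn4 had the motif in 2 places, 240 and 158 bases before the start, F11r had it once, and Lsr once, overlapping its last E-box by shared letters. The AP-1 search was added after the values were seen. Changes and motifs did not go together in every gene. Cldn3 and Marveld2, which also fell in untreated GFP+ cells, had no E-box in their windows, Cldn1, also higher in both CTX libraries, had no AP-1 letters, and Lsr has AP-1 letters but was lower in both CTX libraries than in untreated GFP+ cells. A match describes the letters only and is no evidence that a factor was bound.

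Untreated GFP+ cells were set against untreated RFP+ cells to ask how the junction genes differ between cells labelled EMT and non-EMT. All 10 genes were lower in both GFP+ libraries than in both RFP+ libraries, an absence of overlap in that direction that 41.5% of all genes showed (4.95% were higher). With the test, 5 of the 10 fell (Lsr, Cldn7, Cldn3, Tjp3 and Marveld2), 0 rose and 5 did not pass, against a background of 1.02% of all genes called lower and 0.0612% higher. The median of the 10 was -1.64, against -0.24 over all genes.

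**Figure D1:**
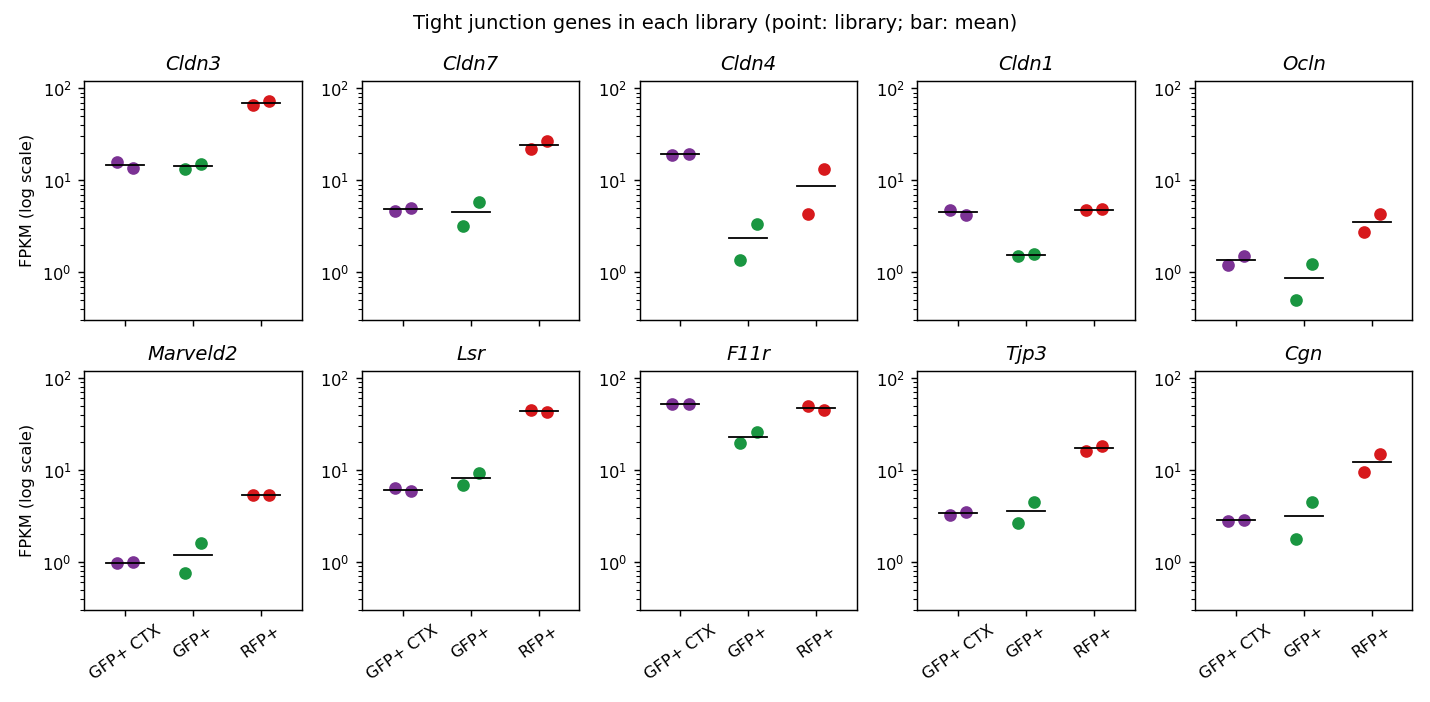
FPKM (log scale) of the 10 genes in each library, with CTX-treated GFP+, untreated GFP+ and RFP+ cells from left to right. Points are libraries and bars group means. Every gene was lower in untreated GFP+ than in RFP+ cells, and Cldn4, Cldn1 and F11r were higher with CTX while Cldn3, Cldn7, Lsr, Marveld2, Tjp3 and Cgn were near their untreated GFP+ level.

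Among the claudins, Cldn3 was the most abundant in RFP+ cells. It stood at 13.4 and 15 FPKM in untreated GFP+ cells, against 66.7 and 72.4 FPKM in RFP+ cells. The libraries within each colour lay close together and the colours far apart, and Cldn3 fell by 2.21 on the log2 scale (SE 0.26, limma adjusted p = 0.0129). Cldn7, the claudin that binds EPCAM, was at 3.18 and 5.83 FPKM in untreated GFP+ cells, against 21.9 and 26.7 FPKM in RFP+ cells. It fell by 2.24 (SE 0.33, limma adjusted p = 0.0241), and its GFP+ mean was 18.5% of the RFP+ mean. Cldn4, a claudin that limits sodium passage, was at 1.37 and 3.32 FPKM in untreated GFP+ cells, against 4.32 and 13.1 FPKM in RFP+ cells. Its higher GFP+ library came close to its lower RFP+ library, and the change of -1.44 (SE 0.47) did not pass (limma adjusted p = 0.329). Cldn1, which is needed for the epidermal barrier in mice, was tight within groups, at 1.49 and 1.59 FPKM in untreated GFP+ cells and 4.80 and 4.83 FPKM in RFP+ cells. Its change of -1.19 (SE 0.26) did not pass either (limma adjusted p = 0.0727).

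Lsr showed the largest fall of the 10. It was at 6.89 and 9.35 FPKM in untreated GFP+ cells, against 45.0 and 42.9 FPKM in RFP+ cells, a mean 18.5% of that in RFP+ cells. Its partner Marveld2 was at 0.769 and 1.63 FPKM in untreated GFP+ cells, against 5.29 and 5.4 FPKM in RFP+ cells. Lsr fell by 2.31 (SE 0.28, limma adjusted p = 0.0136) and Marveld2 fell by 1.56 (SE 0.28, limma adjusted p = 0.0407). Without the RFP+ libraries Marveld2 would not have reached the 1 FPKM in 2 libraries needed for testing, which favours a fall. It lies next to Ocln on chromosome 13 among protein-coding genes of RefSeq. Ocln was the least abundant of the 10 in RFP+ cells, at 0.499 and 1.23 FPKM in untreated GFP+ cells, against 2.75 and 4.35 FPKM in RFP+ cells. Its change of -1.29 (SE 0.29) did not pass (limma adjusted p = 0.0870).

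The plaque proteins and JAM-A differed in size of change. Tjp3 was at 2.66 and 4.49 FPKM in untreated GFP+ cells, against 16.1 and 18.4 FPKM in RFP+ cells, and fell by 2.02 (SE 0.31, limma adjusted p = 0.0279). Its gene overlaps the end of Apba3 in RefSeq, and the library kit does not record strand, but Apba3 itself was at 12.6 and 14.6 FPKM in untreated GFP+ cells and 18.8 and 15 FPKM in RFP+ cells. Cgn was at 1.79 and 4.46 FPKM in untreated GFP+ cells, against 9.47 and 14.9 FPKM in RFP+ cells. Its libraries were spread within both colours, and its change of -1.72 (SE 0.38) did not pass (limma adjusted p = 0.0790). F11r kept the highest share of its RFP+ level among the 10, with a mean of 48.1% of it, at 19.6 and 25.7 FPKM in untreated GFP+ cells against 49.1 and 44.9 FPKM in RFP+ cells. Its change of -1.03 (SE 0.27) was the smallest of the 10 and did not pass (limma adjusted p = 0.158).

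These calls rest on few libraries. Fewer members passed without RFP+ replicate 1 or 2, and no call was left without untreated GFP+ replicate 1 or 2. With these libraries left out in that order, Lsr had log2 changes of -2.28, -2.35, -2.12 and -2.51. Marveld2, the smallest fall called, had changes of -1.57, -1.54, -1.27 and -1.84. The share of all genes called was not worked out for these fits. After median-ratio scaling, which removes the shift of all genes, 0 of the 10 passed limma's test, against 0.0153% of all genes called lower. An unadjusted p under 0.05 was left for 9 of the 10 (limma adjusted p = 0.118 for Lsr and 0.127 for Cldn3) and for 1314 of all 13080 genes. The members' log2 changes still lay between -2.04 and -0.75. With the 6 libraries as separate samples 6 of the 10 fell, against 1.78% of all genes called lower and 0.115% higher, and 7 fell with scaling as well, against 1.73% and 1.02%.

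**Figure D2:**
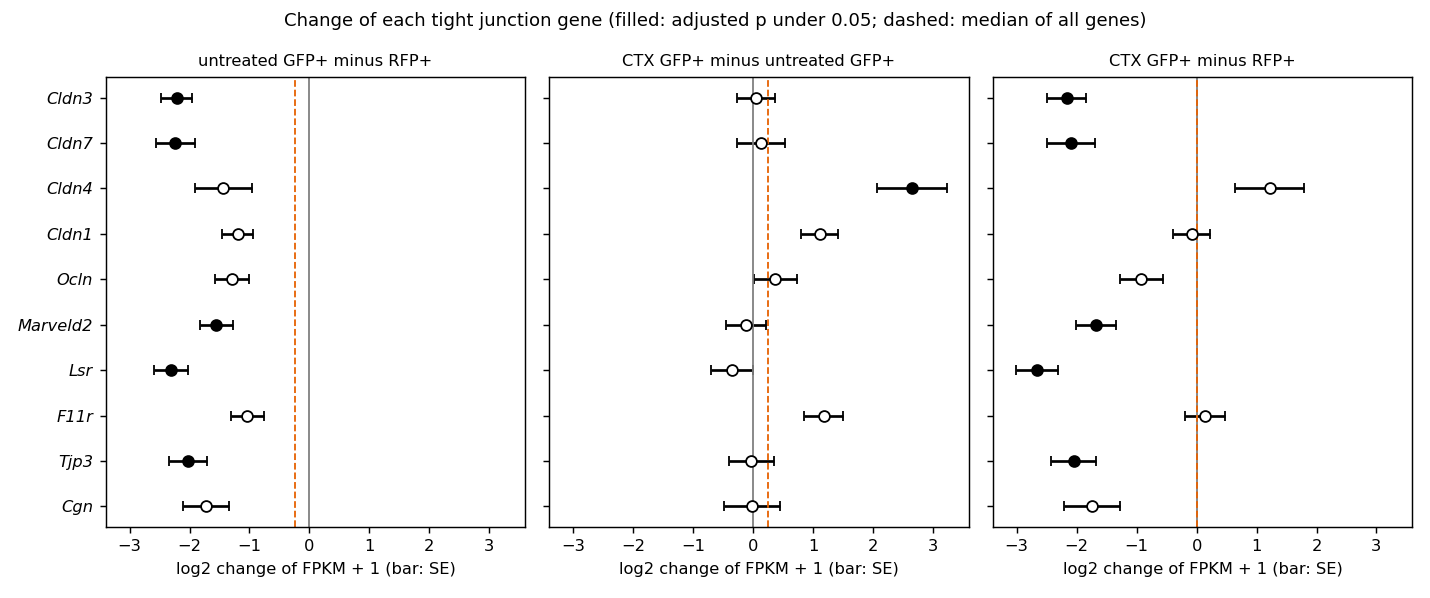
Log2 change (horizontal axis, bars ± SE) of each of the 10 genes in the 3 comparisons, with filled points for adjusted p under 0.05 and a dashed line at the median of all genes. In the left and right panels Cldn3, Cldn7, Marveld2, Lsr and Tjp3 are filled and below 0, and in the middle panel only Cldn4 is filled, at 2.65.

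CTX-treated and untreated GFP+ cells were compared to ask what differs in EMT-labelled cells with the drug. The labels give a culture time only for the CTX libraries, so that time and the drug cannot be told apart, and neither can a change within cells and a change in which cells were left. Of the 10 genes Cldn4 rose, 0 fell and 9 did not pass, against 3.24% of all genes called higher and 0.0612% called lower. Cldn4, Cldn1 and F11r were higher in both CTX libraries than in both untreated GFP+ libraries, as were 51.9% of all genes, and Lsr was lower in both, as were 12.4%. The other 6 overlapped.

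Cldn4 was at 18.9 and 19.4 FPKM in CTX-treated GFP+ cells, against 1.37 and 3.32 FPKM in untreated GFP+ cells. This 8.16-fold difference of means was a log2 change of 2.65 (SE 0.58, limma adjusted p = 0.0410). The CTX level also lay above both RFP+ libraries. Cldn1 was at 4.78 and 4.19 FPKM with CTX, against 1.49 and 1.59 FPKM in untreated GFP+ cells, a 2.91-fold difference of means (log2 change 1.11, SE 0.31, limma adjusted p = 0.104). F11r was at 51.6 and 52.2 FPKM with CTX, against 19.6 and 25.7 FPKM in untreated GFP+ cells, a 2.30-fold difference (log2 change 1.18, SE 0.33, limma adjusted p = 0.103). The changes of Cldn1 and F11r did not pass. With the 6 libraries counted as separate samples, Cldn4, Cldn1 and F11r passed (limma adjusted p = 0.0176, 0.00926 and 0.0117), in a fit that called 12.3% of all genes higher and 0.474% lower. Median-ratio scaling in that fit added Lsr as lower (log2 change -0.57, limma adjusted p = 0.0164), where 13% of all genes were called higher and 5.92% lower.

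The remaining 7 had log2 changes between -0.35 and 0.37, with SE between 0.32 and 0.47, and none passed. Cldn3 was at 15.7 and 13.7 FPKM with CTX, against 13.4 and 15 FPKM in untreated GFP+ cells. Cldn7 was at 4.67 and 5.06 FPKM with CTX, against 3.18 and 5.83 FPKM. For both the CTX values lay within or next to the untreated range. Lsr was at 6.31 and 5.87 FPKM with CTX, against 6.89 and 9.35 FPKM in untreated GFP+ cells (log2 change -0.35, SE 0.35, limma adjusted p = 0.742). Marveld2, at 0.978 and 0.994 FPKM with CTX, lay between its untreated GFP+ values of 0.769 and 1.63 FPKM. Tjp3, at 3.26 and 3.54 FPKM with CTX, and Cgn, at 2.82 and 2.87 FPKM, likewise lay between their untreated values of 2.66 and 4.49 FPKM and of 1.79 and 4.46 FPKM. Ocln was at 1.22 and 1.52 FPKM with CTX, against 0.499 and 1.23 FPKM in untreated GFP+ cells (log2 change 0.37, SE 0.36). The call of Cldn4 was lost without untreated GFP+ replicate 1 or 2 and after median-ratio scaling (limma adjusted p = 0.204), where its log2 change was 2.48 and 0.344% of all genes were called higher. After that scaling 4 of the 10 had an unadjusted p under 0.05 in limma, as did 2414 of all 13080 genes.

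Because all libraries carry the same 4 claudins, their make-up can be read within a library, where scaling has no part. Cldn4 made up 42.9% and 45.9% of the summed FPKM of Cldn1, Cldn3, Cldn4 and Cldn7 in CTX-treated GFP+ cells, 7.06% and 12.9% in untreated GFP+ cells and 4.42% and 11.2% in RFP+ cells. Cldn3 made up 35.6% and 32.3% with CTX, 68.9% and 58.3% in untreated GFP+ cells and 68.3% and 61.8% in RFP+ cells. For Cldn4 and Cldn3 the shares of untreated GFP+ cells overlapped those of RFP+ cells, and the CTX libraries lay outside both groups. Cldn1 did not overlap between any of the groups, at 10.9% and 9.90% with CTX, 7.68% and 6.17% in untreated GFP+ cells and 4.91% and 4.13% in RFP+ cells. Cldn7 made up 10.6% and 11.9% with CTX, 16.3% and 22.7% in untreated GFP+ cells and 22.4% and 22.8% in RFP+ cells. The summed level of the 4 claudins was 44.0 and 42.4 FPKM with CTX, 19.4 and 25.7 FPKM in untreated GFP+ cells and 97.7 and 117 FPKM in RFP+ cells. Cldn12 and the row named Cldn25, whose levels are given below, are outside these sums. No test was made of these shares, since the CTX libraries count as 1 sample.

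**Figure D3:**
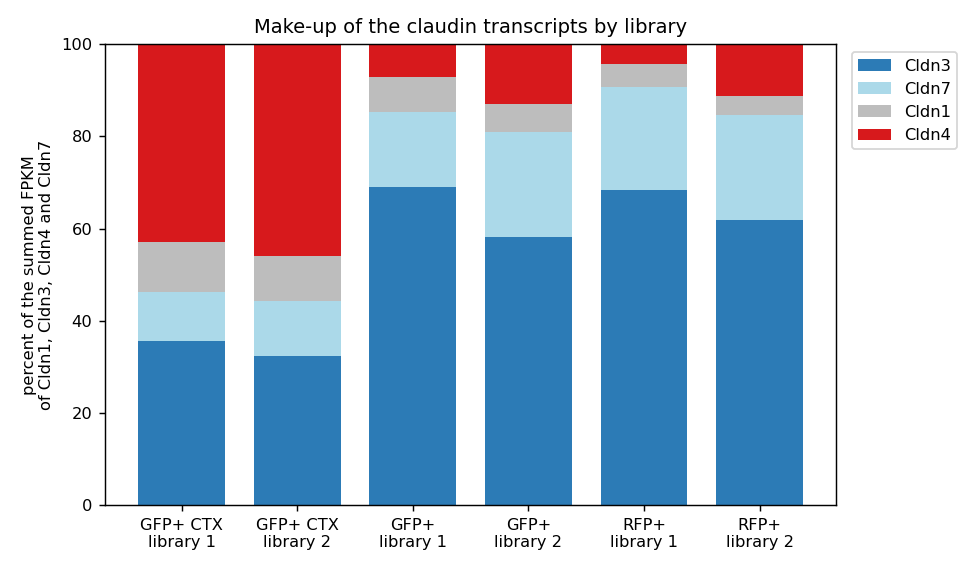
Share (percent, stacked bars) of each of the 4 claudins in their summed FPKM, by library, with CTX-treated GFP+ cells on the left, then untreated GFP+ and RFP+ cells. Cldn4 holds 42.9% and 45.9% of the bars with CTX and at most 12.9% in the other libraries.

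Cldn4 and Cldn3 are neighbours among the protein-coding genes of chromosome 5 in RefSeq, and they came apart with CTX. The log2 ratio of Cldn4 to Cldn3 within a library was 0.27 and 0.51 in CTX-treated GFP+ cells, -3.29 and -2.18 in untreated GFP+ cells and -3.95 and -2.46 in RFP+ cells. Cldn4 thus exceeded Cldn3 in the CTX libraries alone. The ratio of Cldn7 to Cldn3 overlapped between all groups, at -1.75 and -1.44 with CTX, -2.08 and -1.36 in untreated GFP+ cells and -1.61 and -1.44 in RFP+ cells. The lncRNA gene Wbscr25, which overlaps Cldn3, reached at most 0.264 FPKM. For the neighbours Ocln and Marveld2 the log2 ratio was 0.31 and 0.61 with CTX, -0.62 and -0.40 in untreated GFP+ cells and -0.94 and -0.31 in RFP+ cells.

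CTX-treated GFP+ cells set against untreated RFP+ cells show which of these genes stood at the non-EMT level and which did not. This comparison shares its libraries with both others. Of the 10, 5 were lower (Cldn3, Cldn7, Lsr, Marveld2 and Tjp3), 0 were higher and 5 did not pass, against 0.787% of all genes called lower and 3.95% called higher. By overlap alone 8 were lower and 2 higher (Cldn4 and F11r), as were 37.7% and 39.5% of all genes. Lsr had the largest change, at 6.31 and 5.87 FPKM in CTX-treated GFP+ cells against 45.0 and 42.9 FPKM in RFP+ cells (fell by 2.66, SE 0.35, limma adjusted p = 0.00378), with a mean 13.9% of that in RFP+ cells. Cldn3 fell by 2.17 (SE 0.32, limma adjusted p = 0.00641), Cldn7 fell by 2.10 (SE 0.40, limma adjusted p = 0.0189), Tjp3 fell by 2.05 (SE 0.38, limma adjusted p = 0.0171) and Marveld2 fell by 1.68 (SE 0.34, limma adjusted p = 0.0236). Cgn, at 2.82 and 2.87 FPKM against 9.47 and 14.9 FPKM, had a log2 change of -1.74 (SE 0.47, limma adjusted p = 0.0746), and Ocln one of -0.92 (SE 0.36, limma adjusted p = 0.215).

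Mean levels with CTX were 93.2% of the RFP+ mean for Cldn1, 110.4% for F11r and 219% for Cldn4, against 13.9% to 38.5% for the other 7. The log2 change was -0.08 (SE 0.31, limma adjusted p = 0.934) for Cldn1 and 0.14 (SE 0.33, limma adjusted p = 0.889) for F11r. For Cldn4, at 18.9 and 19.4 FPKM with CTX against 4.32 and 13.1 FPKM in RFP+ cells, it was 1.22 (SE 0.58, limma adjusted p = 0.329). None of these 3 passed, and the SE leave room for changes of either sign in Cldn1 and F11r. The order of abundance was accordingly different, with F11r, Cldn4 and Cldn3 leading in CTX-treated GFP+ cells, F11r, Cldn3 and Lsr in untreated GFP+ cells, and Cldn3, F11r and Lsr in RFP+ cells. In RFP+ cells F11r and Lsr were near each other, at means of 47.0 ± 2.98 and 43.9 ± 1.5 FPKM (SD, n = 2). Fewer members passed without RFP+ replicate 1, RFP+ replicate 2 or untreated GFP+ replicate 2, in fits for which the share of all genes called was not worked out. Median-ratio scaling left 3, against 0.489% of all genes called lower and 2.03% higher. With the 6 libraries as separate samples Cgn was also lower, making 6, against 5.99% of all genes called lower and 11% higher (12% and 18.6% with scaling).

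Other genes of the tight junction were read from 3 lists with 58 symbols, all in the table, of which 34 passed the filter on low values. Between untreated GFP+ and RFP+ cells, 2 of the 34 fell and 0 rose, against 1.02% of all genes called lower and 0.0612% higher, with a median of -0.43 beside -0.24 over all genes. The lists differed. The 6 other junction membrane proteins tested had a median of -1.12 (from -1.71 to 0.47), nearer to the -1.64 of the set of 10. The median was -0.40 for 25 plaque and polarity proteins and -0.37 for 3 other claudins. Marveld3, the third MARVEL-domain protein of the junction, was at 1.13 and 1.25 FPKM in untreated GFP+ cells, against 4.24 and 4.53 FPKM in RFP+ cells (fell by 1.30, SE 0.24, limma adjusted p = 0.0459). Pard6b, a scaffold of the PAR polarity complex, was at 0.821 and 1.05 FPKM in untreated GFP+ cells, against 3.70 and 4.15 FPKM in RFP+ cells (fell by 1.35, SE 0.24, limma adjusted p = 0.0407). With CTX against untreated GFP+ cells, 1 of the 34 rose and 0 fell. This is near the share of all genes called higher, 3.24%, and the median of 0.24 is near the 0.25 over all genes. The gene was Pard6g, another PAR6 scaffold, at 8.22 and 8.39 FPKM with CTX against 2.17 and 2.68 FPKM (log2 change 1.45, SE 0.33, limma adjusted p = 0.0486). The calls of Marveld3, Pard6b and Pard6g were lost after median-ratio scaling (adjusted p = 0.133, 0.130 and 0.0999), where their log2 changes were -1.11, -1.18 and 1.26. Without RFP+ replicate 1, RFP+ replicate 2, untreated GFP+ replicate 1 or untreated GFP+ replicate 2 in turn, no call among the 34 was left in either comparison. The share of all genes called was not worked out for these fits. In the main fit 13 of the 34 had an unadjusted p under 0.05 in limma between the untreated colours, as did 1115 of all 13080 genes. With CTX against untreated GFP+ cells 5 of the 34 had such a p, as did 1968 of all genes. CTX-treated GFP+ against RFP+ cells gave 0 calls among the 34 in limma. There 10 had an unadjusted p under 0.05, as did 2270 of all 13080 genes. With the 6 libraries as separate samples 11 were called (9 lower and 2 higher), in a fit that called 5.99% of all genes lower and 11% higher.

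The ubiquitous scaffold Tjp1 (ZO-1) was at 32.6 and 33.1 FPKM in CTX-treated GFP+ cells, 16.3 and 27.2 FPKM in untreated GFP+ cells and 25.5 and 32.3 FPKM in RFP+ cells. Its log2 change between untreated GFP+ and RFP+ cells was -0.43 (SE 0.32, limma adjusted p = 0.688), beside -2.02 for its relative Tjp3. Of 21 further claudins 17 were under 1 FPKM in every library, the endothelial claudin Cldn5 among them at no more than 0.03 FPKM. Of those that passed the filter, Cldn12 was at 9.73 and 10.1 FPKM in CTX-treated GFP+ cells, 8.34 and 10.3 FPKM in untreated GFP+ cells and 12.5 and 12 FPKM in RFP+ cells. Cldn23 reached at most 1.54 FPKM. The row named Cldn25 was at 21.6 and 22.1 FPKM with CTX, 18.2 and 19.2 FPKM in untreated GFP+ cells and 24.8 and 21.5 FPKM in RFP+ cells. In untreated GFP+ cells it lay above every claudin of the set of 10. Its symbol is one that RefSeq lists as a synonym of more than 1 gene. Ildr1 (angulin-2), a relative of Lsr, was at 2.66 and 2.40 FPKM with CTX, 1.68 and 3.35 FPKM in untreated GFP+ cells and 7.71 and 13.2 FPKM in RFP+ cells, and its change between the untreated colours did not pass (log2 change -1.71, SE 0.35, limma adjusted p = 0.0649).

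**Figure D4:**
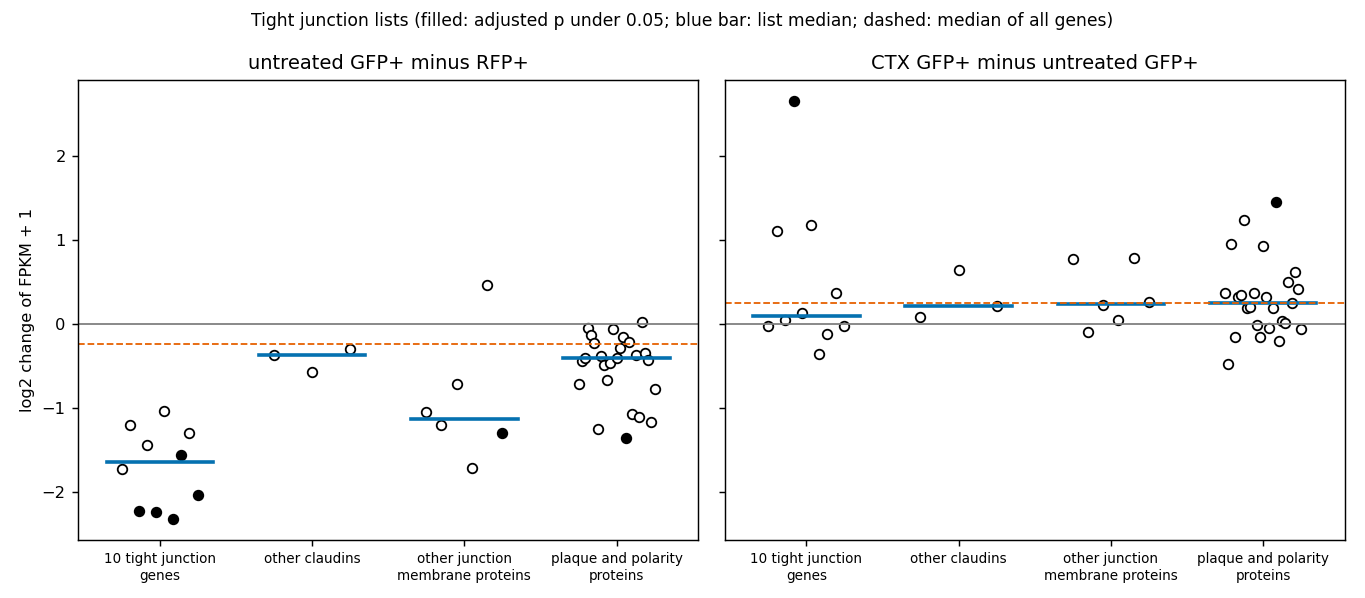
Log2 change of each tested gene in the set of 10 and in 3 lists of other junction genes, for untreated GFP+ minus RFP+ cells (left) and CTX-treated minus untreated GFP+ cells (right). Filled points passed at adjusted p under 0.05, blue bars are list medians and the dashed line is the median of all genes. On the left the medians are -1.64 for the 10 genes, -0.37 for other claudins, -1.12 for other junction membrane proteins and -0.40 for plaque and polarity proteins.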

How the data were processed

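Gene expression had been measured by RNA sequencing in 6 libraries. The submitters' processing notes name TopHat, Cufflinks, HTSeq, FastQC, CASAVA 1.8.2 and the build mm9, and their order and settings are not given in the sources used here. The deposited table holds FPKM values made by the authors. Its fold column consists of division errors and was left out. R 4.3.3 and limma 3.58.1 were used to fit log2(FPKM + 1), with an intensity trend, two-sided tests, a Benjamini-Hochberg threshold of 0.05 and a filter that kept genes reaching 1 FPKM in 2 or more libraries. The design had foreseen 6 separate samples. Since the CTX libraries differed by no more than counting noise, their mean FPKM entered as 1 sample, leaving 2 residual degrees of freedom, and the fit of 6 is an alternative. That check converted FPKM to fragments with GENCODE vM21 transcript lengths, which are not those the authors used, so depths are approximate. The untreated groups share replicate numbers, but nothing in the labels says that these mark a shared batch, and the block is an alternative only. The procedure was tested on simulated data. The members and lists were chosen with earlier results of these data known. Named genes were all 10 members and, of the other junction genes, up to 5 past the threshold each way, with the partner, protease, transcription factor and marker lists described by level. Tjp1, Cldn12, Cldn23, Cldn25, Ildr1 and the few list genes given in full were chosen after their values were seen. Some genes of the lists are not reported here by name. Other alternatives were pseudocounts, filters, scalings, no trend, only the compared samples and leaving out each library. Figures were drawn with matplotlib 3.10.9.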

Additional observations from a re-analysis of the deposited data

How the results depend on the processing

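Every member kept its direction in untreated GFP+ minus RFP+ and in CTX-treated GFP+ minus RFP+ cells under all alternatives run. In CTX-treated minus untreated GFP+ cells 15 values changed sign, all of members that had not passed. Cldn3 was at -0.19 after median-ratio scaling, -0.26 with quantile normalization and -0.19 with scaling and 6 libraries, and between -0.048 (without CTX replicate 1) and 0.14 with 1 library left out, with -0.03 without untreated GFP+ replicate 1. Cldn7 was at -0.065, -0.26 and -0.066 under the same scalings and between -0.22 (without untreated GFP+ replicate 1) and 0.49 with 1 library left out. Ocln was at -0.015 after quantile normalization. With 1 library left out Marveld2 lay between -0.40 and 0.17, Tjp3 between -0.32 and 0.26 and Cgn between -0.51 and 0.46, the highest without untreated GFP+ replicate 2 in each case. Tjp3 was at 0.02 without CTX replicate 1, and Cgn at 0.0036 with a pseudocount of 0.1. The number of members called among 10 (5, 1 and 5 in the 3 comparisons in order) became 2, 0 and 2 with a pseudocount of 0.1, 8 in the first with a pseudocount of 5, and 0, 0 and 2 without a filter on low values. It became 0, 0 and 3 with median-ratio scaling, and 0 and 0 in the first 2 with quantile normalization. It was 0 in the second without the trend and 1 in the last with only the samples compared. With 6 libraries as separate samples the second became 3, or 4 with scaling. With the replicate block it was 9, 2 and 8; the deviations of same-numbered untreated libraries correlated (r = 0.30 across genes, which are not independent), a hint from 2 pairs and not from the design. Leaving out 1 library gave 0 to 5, 0 to 1 and 1 to 5. Among 34 other junction genes (2, 1 and 0 called) the counts were 0 and 0 in the first 2 with a pseudocount of 0.1, 4 and 7 in the first and last with a pseudocount of 5, 0 and 1 in the first and last unfiltered, and 1 and 0 in the first 2 with a filter at 5 FPKM. They were 0 and 0 with median-ratio scaling, 0, 0 and 3 with quantile normalization, 0 and 0 without the trend and 1 and 0 with only the samples compared. With the block they were 11, 3 and 8, with 6 libraries 4, 2 and 11, and 5, 6 and 15 with scaling as well. Leaving out 1 library gave 0 to 2, 0 to 1 and 0 to 1. All counts of 0 are from limma, in which 2 to 9 members or 2 to 19 other genes had an unadjusted p under 0.05, or 10 members without untreated GFP+ replicate 2. The cause of these moves was not tested. Shares over all genes were worked out only for the main fit, median-ratio scaling and the fits with 6 libraries. This holds for genes called and for those with an unadjusted p under 0.05. Counts from the other fits, such as 9 of 10 with the block, therefore cannot be set against all genes. The fits with 6 libraries were chosen after seeing the data.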

Other observations

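Genes whose products work beside the claudins were lower in untreated GFP+ than in RFP+ cells. EPCAM binds and stabilises claudin-7, matriptase (St14) and prostasin (Prss8) are membrane serine proteases, and HAI-1 (Spint1) and HAI-2 (Spint2) inhibit them. All 5 genes named here fell (limma, Benjamini-Hochberg over all genes). Epcam was at 22.7 and 43.3 FPKM in untreated GFP+ cells, against 119 and 145 FPKM in RFP+ cells. Spint2 was at 21.4 and 37.0 FPKM in untreated GFP+ cells, against 127 and 145 FPKM in RFP+ cells (fell by 2.23, SE 0.31, limma adjusted p = 0.0184). With CTX against untreated GFP+ cells 0 of these 5 passed limma's test (0 had an unadjusted p under 0.05, and 0 passed with the 6 libraries as separate samples), and against RFP+ cells 4 were lower (Epcam, Spint2, St14 and Prss8). None of these calls held after median-ratio scaling in the fit of 5 samples (adjusted p between 0.0589 and 0.183), where the log2 changes lay between -1.94 and -1.41 for the 5 genes in the first comparison and between -2.07 and -1.56 for the 4 in the last. With the 6 libraries as separate samples all of them passed, with and without scaling.

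Among 11 transcription factors known to act on epithelial genes, 2 fell between untreated GFP+ and RFP+ cells and 0 rose, against 1.02% of all genes called lower and 0.0612% higher. Grhl2, a grainyhead-like activator of epithelial genes, was at 2.80 and 2.64 FPKM in CTX-treated GFP+ cells, 1.81 and 3.78 FPKM in untreated GFP+ cells and 13.9 and 15.7 FPKM in RFP+ cells. Ovol2, a repressor of mesenchymal genes, was at 0.625 and 0.696 FPKM with CTX, 0.04 and 0.51 FPKM in untreated GFP+ cells and 2.62 and 2.02 FPKM in RFP+ cells. Only the RFP+ libraries took it past the filter on low values, which favours a fall. It also fell between the untreated colours (fell by 1.40, SE 0.25, limma adjusted p = 0.0407). Grhl2 fell by 2.11 there (SE 0.33, limma adjusted p = 0.0296) and fell by 2.08 between CTX-treated GFP+ and RFP+ cells (SE 0.40, limma adjusted p = 0.0202). After median-ratio scaling none of these 3 calls held (adjusted p = 0.184 for Ovol2 and 0.133 and 0.0558 for Grhl2), with log2 changes of -1.32 for Ovol2 and of -1.88 and -2.03 for Grhl2. They passed with the 6 libraries as separate samples, with and without scaling. Its relative Grhl3 was at 2.61 and 2.90 FPKM with CTX, 0.05 and 0.63 FPKM in untreated GFP+ cells and 0.60 and 1.90 FPKM in RFP+ cells, and its change with CTX did not pass (log2 change 1.52, SE 0.39, limma adjusted p = 0.0769), but did with the 6 libraries as separate samples (limma adjusted p = 0.0298, or 0.0477 with scaling). Without the CTX libraries Grhl3 would not have passed the filter on low values, which favours a rise with CTX. The repressor Snai1 was at 27.8 and 26.6 FPKM with CTX, 29.2 and 29.2 FPKM in untreated GFP+ cells and 25.9 and 18.3 FPKM in RFP+ cells. Zeb1 was at 13.8 and 13.0 FPKM with CTX, 6.64 and 10.1 FPKM in untreated GFP+ cells and 4.55 and 4.72 FPKM in RFP+ cells, and did not pass in any comparison (limma adjusted p = 0.563 for untreated GFP+ minus RFP+, 0.50 with CTX against untreated GFP+, and 0.0840 against RFP+ cells, where it was 0.0496 after median-ratio scaling and 0.0107 with the 6 libraries as separate samples). With 6 libraries and scaling it passed in untreated GFP+ minus RFP+ and in CTX-treated GFP+ minus RFP+ cells (limma adjusted p = 0.0260 and 0.00282).

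Replicate 2 was higher than replicate 1 for all 10 tight junction genes in untreated GFP+ cells for 8 of 10 in RFP+ cells and for 7 of 10 in the CTX pair. Over all 13080 genes tested the share higher in replicate 2 was 84.8% in untreated GFP+, 43.8% in RFP+ and 48.1% in CTX-treated GFP+ cells. Cldn4 was 2.42-fold and 3.04-fold higher in replicate 2 in the untreated GFP+ and RFP+ pairs. Ocln and Cgn were 2.47-fold and 2.49-fold higher in the untreated GFP+ pair, and 1.58-fold and 1.57-fold higher in the RFP+ pair. In the CTX pair no member differed by more than 1.25-fold.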
